A study of Mus musculus with 16 samples.

Results

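Complement is an innate immune cascade of secreted proteins that mark targets and recruit phagocytes, and 9 of its genes were followed across the hippocampus of wild type and Kcna1 knockout mice. They were the rows of a table of raw counts whose gene name was C1qa, C1qb, C1qc, C1ra, C4b, C3, Serping1, C3ar1 or C5ar1, that is 9 of 49315 rows. The 16 libraries fell into 4 groups of 4, wild type mice fed a standard diet, Kcna1 knockout mice fed that diet, wild type mice fed a ketogenic diet and knockout mice fed the ketogenic diet. Kcna1 codes for a subunit of voltage-gated potassium channels, its loss causes seizures in mice, and ketogenic diets replace most carbohydrate by fat. The series title concerns astrogliosis, the reaction of astrocytes to injury, and the comparisons ask what the loss of Kcna1 and the diet change. Each column carries the tag of 1 animal, while age, sex, strain, the kind of Kcna1 allele and the duration of the diet are not given in the sources used here.

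The classical pathway starts when C1q, assembled from the chains encoded by C1qa, C1qb and C1qc, binds a target and activates the proteases C1r and C1s, which cleave C4 and C2 and so lead to cleavage of C3. C1-inhibitor, the product of Serping1, blocks C1r and C1s, and the fragments C3a and C5a act through the receptors encoded by C3ar1 and C5ar1. In the brain, microglia are the main source of C1q, astrocytes are a known source of C4 and C3, and C1q and C3 are known for tagging synapses that microglia remove.

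Libraries are named by their animal tag, and values within a group are listed in one order throughout. That order is KC890RL, KC894RLL, KC897RR and KC900RLL in standard-diet wild type, and KC872RL, KC873RR, KC888LL and KC893RL in the knockout on that diet. It is KC842L, KC843RL, KC844RR and KC846L in ketogenic-diet wild type, and KC913RR, KC916RRL, KC934R and KC935LL in the knockout on that diet. Levels are CPM, counts scaled to a common effective library size, from totals of 13440230 to 22309504 counts per library. Kcna1 measured 107 to 130 CPM in the wild type libraries and 43.4 to 47.2 CPM in 7 knockout libraries, but 82.0 CPM in the library labelled knockout KC888LL, which is therefore called by its label below. Y-linked Ddx3y measured 56.5 to 65.1 CPM in KC872RL, KC873RR, KC890RL and KC846L and at most 1.63 CPM in the other 12 libraries. The 9 marker genes of hippocampal neurons summed to 675 to 1243 CPM in every library, while the 6 markers of choroid plexus, a neighbouring tissue, ranged from 30.6 to 1065 CPM.

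C1qa, C1qb and C1qc lie next to one another on chromosome 4 (GRCm38, minus strand). C1qb (ENSMUSG00000036905) spans 136880129 to 136886187, C1qc (ENSMUSG00000036896) 136889804 to 136893065, and C1qa (ENSMUSG00000036887) 136895917 to 136898803. C3 (ENSMUSG00000024164) lies on chromosome 17 at 57203970 to 57228136, minus strand, and no exon of it overlaps another annotated gene. The 300-base promoter windows of C1qb, C1qc and C3 are printed because C1qb and C1qc had similar profiles over the libraries and C3 a different one. Each runs from 250 bases before to 50 bases after the gene start, on the strand of the gene, where start and sequence are those of RefSeq (GRCm38.p6). The RefSeq start is the GENCODE start for C3, but lies 13 bases outside the GENCODE span given above for C1qb and 151 bases inside it for C1qc. Capitals mark the core of the site of PU.1, a transcription factor of microglia and other myeloid cells, read as GAGGAA or, on the opposite strand, TTCCTC.
C1qb promoter (chr4:136886151-136886450): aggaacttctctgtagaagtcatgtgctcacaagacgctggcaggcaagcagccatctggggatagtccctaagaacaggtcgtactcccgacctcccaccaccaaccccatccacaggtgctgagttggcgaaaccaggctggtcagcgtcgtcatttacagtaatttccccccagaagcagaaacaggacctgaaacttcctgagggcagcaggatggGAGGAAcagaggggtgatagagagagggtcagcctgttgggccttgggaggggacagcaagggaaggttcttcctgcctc
C1qc promoter (chr4:136892865-136893164): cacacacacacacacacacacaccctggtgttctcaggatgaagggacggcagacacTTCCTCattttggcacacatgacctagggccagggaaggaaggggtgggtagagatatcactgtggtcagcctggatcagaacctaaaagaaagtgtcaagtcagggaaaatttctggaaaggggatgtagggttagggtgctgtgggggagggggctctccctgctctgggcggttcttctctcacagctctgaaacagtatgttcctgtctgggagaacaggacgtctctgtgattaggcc
C3 promoter (chr17:57228087-57228386): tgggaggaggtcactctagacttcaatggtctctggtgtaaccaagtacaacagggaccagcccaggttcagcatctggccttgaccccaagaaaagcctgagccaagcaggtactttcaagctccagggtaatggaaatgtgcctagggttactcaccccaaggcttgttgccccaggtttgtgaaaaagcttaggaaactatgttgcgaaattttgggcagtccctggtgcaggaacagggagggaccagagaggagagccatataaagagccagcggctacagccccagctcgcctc

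The C1qb window held 1 GAGGAA at position -30 from the RefSeq start and the C1qc window 1 on the opposite strand at -193, a match present in 28.3% of 32851 promoters of this length. TTCNNNGAA (STAT), the interferon-stimulated response element and the NF-kB site, searched on both strands, were present in 8.3%, 3.44% and 5.8% of promoters. Of these, the C1qc window held 1 NF-kB match, at -41 from the RefSeq start, which is inside the GENCODE span, and the C3 window held no match to any of the 4 motifs. Windows were found for 6 of the 9 genes. The C1ra window held 1 PU.1 core and 1 STAT match, those of C3ar1 and C5ar1 held none, and no 2 matches overlapped. A match of letters is a description of the window only.

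Levels differed by orders of magnitude among the 9 genes. Per kilobase of exon, the mean level in standard-diet wild type was 27.1 CPM per kb for C1qa, 10.1 for C1qb, 6.16 for C1qc and 5.64 for C4b. It was 1.37 CPM per kb for Serping1, 0.482 for C1ra, 0.273 for C3, 0.247 for C3ar1 and 0.0446 for C5ar1. Among these 9 genes the C1q chains and C4b were thus the most abundant, and C3 and both receptors had few counts. The group mean was highest in the standard-diet knockout for 8 of the 9 genes, the exception being C5ar1. Of the 27 steps between neighbouring group means, however, only 4 exceeded the larger SD of the pair. These were C3 between the genotypes on the ketogenic diet, Serping1 between the genotypes on the standard diet, C5ar1 from the ketogenic to the standard diet in the knockout, and C1ra from the standard to the ketogenic diet in wild type.

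**Figure D1:**
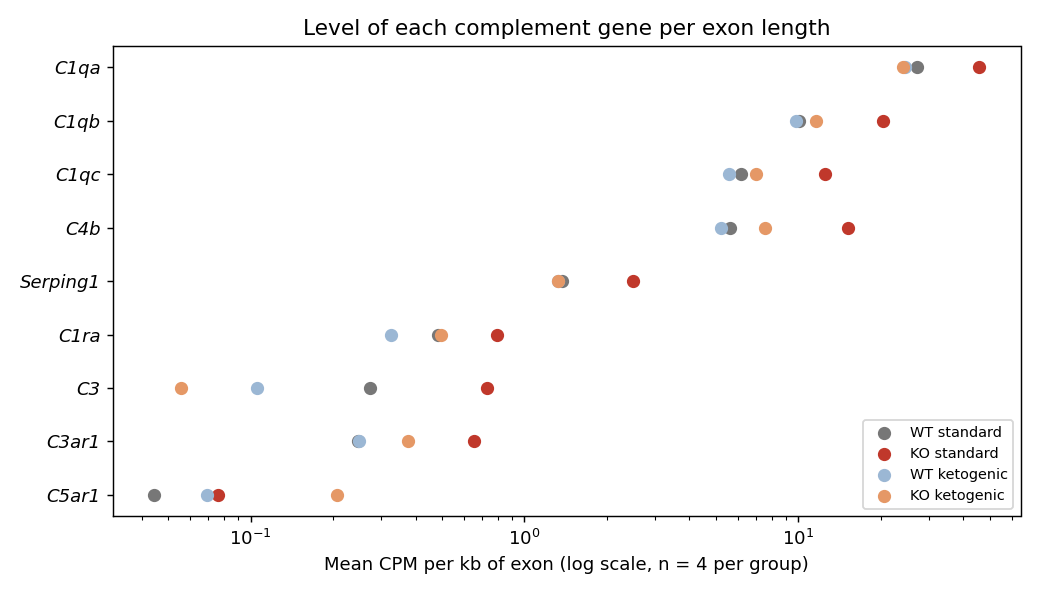
Mean CPM per kilobase of exon (log scale) of each complement gene in the 4 groups (1 point per group, n = 4 libraries each). C1qa, at 27.1 CPM per kb in standard-diet wild type, was the most abundant gene and C5ar1, at 0.0446, the least.

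The genes of the 3 C1q chains were highest in KC872RL and KC873RR, knockout libraries on the standard diet, and lay near wild type in the other pair of that group. C1qa measured 30.0, 23.6, 29.5 and 29.7 CPM in standard-diet wild type and 26.7, 23.1, 26.3 and 26.1 CPM in ketogenic-diet wild type. In the knockout it measured 72.1, 66.6, 23.9 and 27.7 CPM on the standard diet and 27.2, 23.5, 26 and 23.9 CPM on the ketogenic diet. Only KC872RL and KC873RR lay above the range of the 8 wild type libraries, and the groups overlapped in each comparison. C1qb measured 10.9, 10.8, 10.2 and 11.9 CPM in standard-diet wild type and 11.1, 11.1, 9.78 and 10.8 CPM in ketogenic-diet wild type. In the knockout C1qb measured 35.5, 29.5, 10.9 and 12.6 CPM on the standard diet and 16.5, 9.72, 14.9 and 9.28 CPM on the ketogenic diet. Here 5 knockout libraries, KC872RL, KC873RR, KC893RL, KC913RR and KC934R, exceeded every wild type library, and 2, KC916RRL and KC935LL, lay below all of them. C1qc measured 10.7, 11, 13.3 and 12.5 CPM in standard-diet wild type and 10.2, 8.91, 12.3 and 11.9 CPM in ketogenic-diet wild type. In the knockout C1qc measured 39.3, 34.7, 11 and 11.8 CPM on the standard diet and 18, 11.1, 13.3 and 11.7 CPM on the ketogenic diet. It exceeded the wild type range in KC872RL, KC873RR, KC913RR and KC934R, in KC934R by little.

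The chains did not keep one ratio. The ratio of C1qa to C1qb was 2.08 to 2.90 in the 8 wild type libraries and fell outside that range in 3 libraries, at 2.03 in KC872RL, 1.65 in KC913RR and 1.75 in KC934R. The ratio of C1qc to C1qb lay within the wild type range of 0.801 to 1.31 in all 8 knockout libraries. Over the 16 libraries, log2 CPM of C1qa and C1qb correlated with Pearson's r = 0.92, a value that was 0.268 without KC872RL and KC873RR. For C1qb and C1qc the values were 0.947 and 0.615. These correlations describe libraries that share genotype and diet groups, and no test was attached to them.

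**Figure D2:**
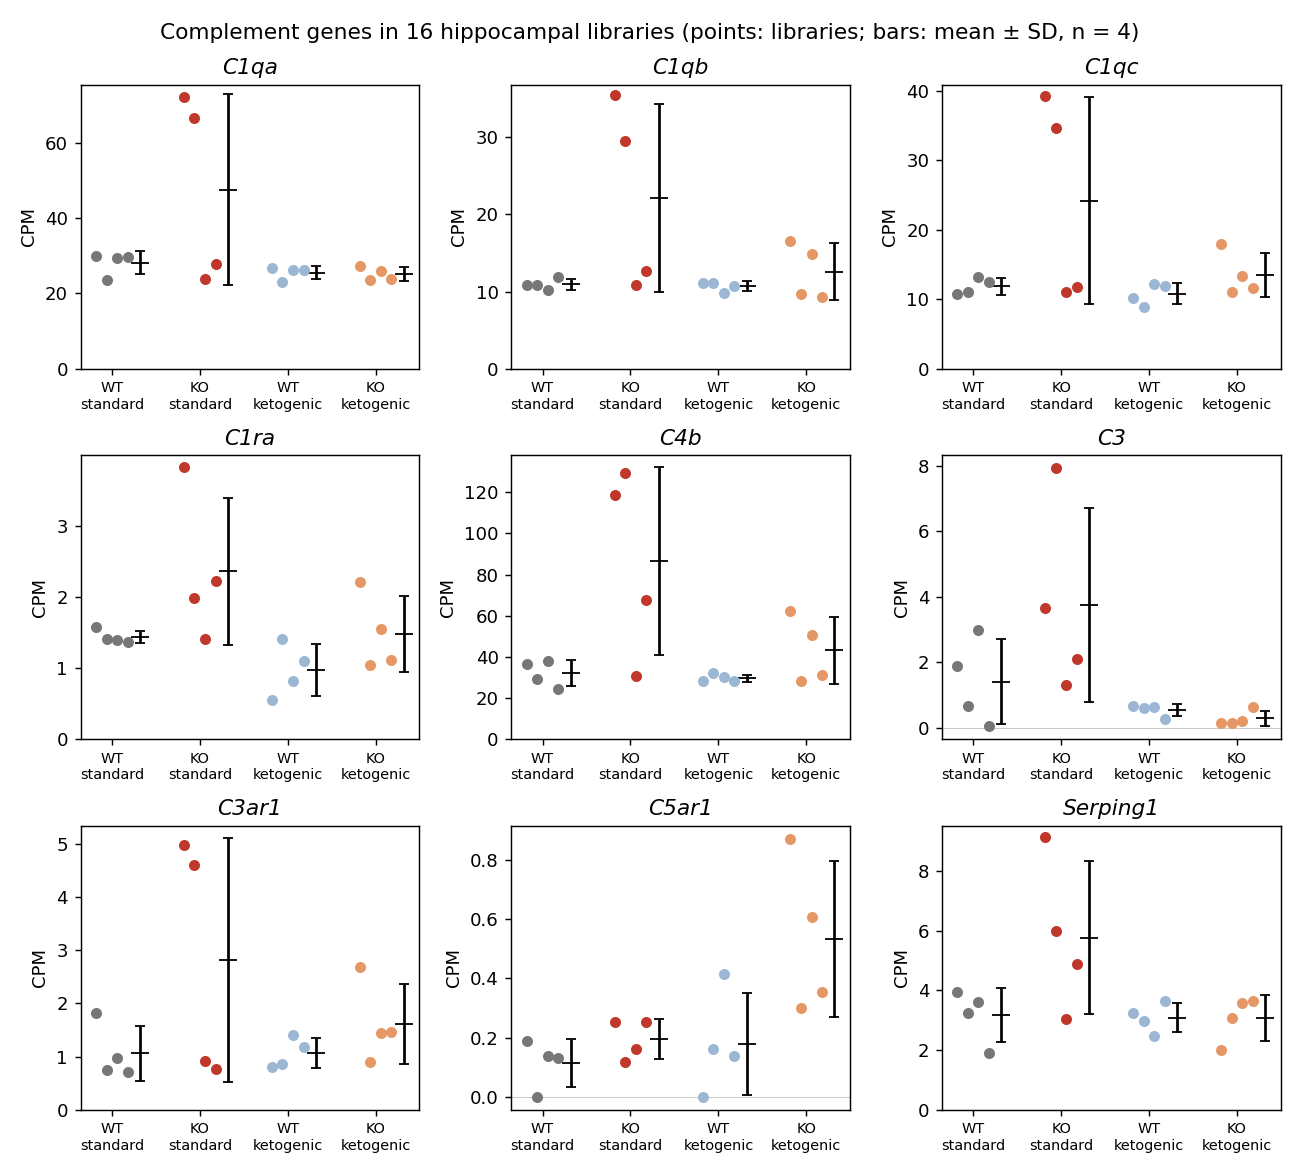
CPM of each of the 9 complement genes in 16 libraries, by group (points: libraries; bars: mean ± SD, n = 4). KC872RL and KC873RR, the first 2 points of the standard-diet knockout, stand above the wild type libraries for every gene shown except C5ar1, which was highest in the ketogenic-diet knockout.

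C4b (ENSMUSG00000073418, chromosome 17, 34728380 to 34743882, minus strand) encodes complement C4, the substrate of C1s. It measured 36.8, 29.3, 38.1 and 24.4 CPM in standard-diet wild type and 28.1, 32, 30.1 and 28.3 CPM in ketogenic-diet wild type. The knockout libraries measured 119, 129, 30.9 and 67.6 CPM on the standard diet and 62.3, 28.2, 50.7 and 31.4 CPM on the ketogenic diet. C4b exceeded the wild type range in 5 of 8 knockout libraries, KC872RL, KC873RR, KC893RL, KC913RR and KC934R. The same 5 libraries exceeded the wild type range of Gfap, the intermediate filament of reactive astrocytes, at 611 to 2327 CPM against 294 to 390 CPM. C4a, a similar neighbouring copy whose reads could be exchanged with those of C4b, had log2 fold changes of -0.01 for genotype on the standard diet and 0.17 for diet in the knockout.

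C1ra, which encodes the protease C1r, lies on chromosome 6 (ENSMUSG00000055172, 124512405 to 124523443, plus strand), 2.12 Mb from Kcna1. It measured 1.57, 1.41, 1.39 and 1.37 CPM in standard-diet wild type and 0.559, 1.40, 0.825 and 1.09 CPM in ketogenic-diet wild type. In the knockout the levels were 3.82, 1.98, 1.41 and 2.22 CPM on the standard diet and 2.21, 1.05, 1.55 and 1.12 CPM on the ketogenic diet. The 4 knockout libraries KC872RL, KC873RR, KC893RL and KC913RR were above the wild type range. C3ar1, at 3.78 Mb, is also near Kcna1, so that an effect of Kcna1 and of sequence inherited with the targeted locus cannot be told apart for these genes. Reads of C1ra could also be shared with its near copy C1rb, which held 15 counts over all libraries.

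Serping1 (ENSMUSG00000023224, chromosome 2, 84765387 to 84775444) is the only regulator among the 9 genes. Its levels were 3.96, 3.23, 3.62 and 1.90 CPM in standard-diet wild type and 3.25, 2.97, 2.48 and 3.64 CPM in ketogenic-diet wild type. They were 9.15, 6.0, 3.03 and 4.88 CPM in the standard-diet knockout and 2.01, 3.07, 3.59 and 3.64 CPM in the ketogenic-diet knockout. KC872RL, KC873RR and KC893RL exceeded the wild type range, and no knockout library on the ketogenic diet did.

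C3, the protein on which all complement pathways converge, was low throughout and varied widely within groups. It measured 1.88, 0.673, 2.99 and 0.0653 CPM in standard-diet wild type, from 30, 10, 43 and 1 counts, and 0.660, 0.594, 0.648 and 0.273 CPM in ketogenic-diet wild type. In the knockout C3 measured 3.67, 7.92, 1.30 and 2.09 CPM on the standard diet, from 73, 136, 24 and 33 counts. On the ketogenic diet the knockout libraries measured 0.134, 0.150, 0.221 and 0.646 CPM, from 2, 2, 4 and 11 counts. Every knockout library on the standard diet was above every knockout library on the ketogenic diet. KC913RR and KC934R, in which C4b and Gfap were above the wild type range, held 2 and 4 counts of C3. As a share of C4b, C3 was 0.215% and 0.436% there, against 0.268% to 7.85% in wild type, so only KC913RR was below that range.

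The receptor genes were both low. C3ar1 (ENSMUSG00000040552, chromosome 6, 122847138 to 122856161) measured 1.82, 0.741, 0.974 and 0.719 CPM in standard-diet wild type and 0.812, 0.864, 1.41 and 1.18 CPM in ketogenic-diet wild type. In the knockout C3ar1 measured 4.98, 4.6, 0.920 and 0.761 CPM on the standard diet and 2.68, 0.897, 1.44 and 1.47 CPM on the ketogenic diet. It exceeded the wild type range in KC872RL, KC873RR and KC913RR. C5ar1 (ENSMUSG00000049130, chromosome 7, 16246743 to 16259540) was removed by the filter on low counts, with 3, 0, 2 and 2 counts in wild type and 5, 2, 3 and 4 counts in the standard-diet knockout. On the ketogenic diet it held 0, 3, 7 and 3 counts in wild type and 13, 4, 11 and 6 counts in the knockout. In CPM, every knockout library on the ketogenic diet was above every knockout library on the standard diet for C5ar1, the opposite order to that of C3.

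The first comparison was that of the genotypes on the standard diet. The log2 fold changes of the 8 genes that passed the filter were all above 0, from 0.72 to 1.43, with a median of 1.02 against 0.00 over all 17469 tested genes. C4b had 1.43 ± 0.38 (SE; edgeR quasi-likelihood test, Benjamini-Hochberg adjusted p = 0.202), a fold of 2.70, the wild type mean being 32.1 ± 6.48 CPM and the knockout mean 86.6 ± 45.9 CPM (SD, n = 4 each). The C1q chain genes had 0.76 ± 0.29 (C1qa), 1.02 ± 0.32 (C1qb) and 1.03 ± 0.36 (C1qc), with edgeR adjusted p = 0.270, 0.210 and 0.239. C3 and C3ar1 had 1.42 ± 0.67 and 1.40 ± 0.55, and Serping1 and C1ra 0.86 ± 0.29 and 0.72 ± 0.32 (edgeR adjusted p from 0.211 to 0.352). By edgeR 0 of 8 were called at an adjusted p under 0.05, as were 0.00572% of all tested genes, and 7 of 8 had an unadjusted p under 0.05 in the higher direction, against 7.64% of all tested genes in that direction and 6.69% in the lower. DESeq2 called 1, C4b (log2 fold change 1.43, adjusted p = 0.0313), where it called 0.653% of all genes as higher. None of the 9 genes had groups that did not overlap, against 2.97% of tested genes in the higher and 2.89% in the lower direction.

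These values depended on which libraries entered the fit. Without the library labelled knockout KC888LL, edgeR called 5 of the 8 as higher: C1qa (0.98, adjusted p = 0.0318), C1qb (1.24, 0.0211), C1qc (1.27, 0.0331), C4b (1.71, 0.00652) and Serping1 (1.07, 0.0215). The same fit called 2.88% of all tested genes as higher. Without KC872RL and KC873RR, an alternative added after the data had been seen, 0 of 8 and 0% of all tested genes were called, and the log2 fold changes were -0.13 for C1qa, 0.10 for C1qb, -0.06 for C1qc, 0.27 for C3, 0.61 for C4b, 0.31 for Serping1, -0.34 for C3ar1 and 0.32 for C1ra. That fit left only KC893RL and the library labelled knockout KC888LL, with Kcna1 at 82.0 CPM, in the standard-diet knockout. C4b had the largest value of the 8 in that fit, with KC893RL, at 67.6 CPM, still in the group.

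On the ketogenic diet, the log2 fold changes of knockout over wild type ran from -0.84 to 0.61, with a median of 0.28 against 0.00 over all tested genes. The values were 0.55 ± 0.39 (SE) for C4b, 0.60 ± 0.56 for C3ar1, 0.61 ± 0.34 for C1ra and -0.84 ± 0.97 for C3, and -0.02, 0.24, 0.32 and -0.00 for C1qa, C1qb, C1qc and Serping1. Without KC913RR they were 0.32 for C4b, 0.27 for C3ar1, 0.36 for C1ra, 0.085 for C1qb and 0.16 for C1qc. Without KC935LL the value of C3 was -1.6. By edgeR 0 of 8 were called (adjusted p from 0.598 to 0.999), as were 0.0172% of all tested genes, 0 had an unadjusted p under 0.05, against 5.24% of tested genes in the higher and 3.97% in the lower direction, and DESeq2 called 0. C5ar1, fitted with no filter on low counts, had 1.59 ± 0.66 (SE; edgeR adjusted p = 0.729). No groups were separate for any of the 9 genes, against 2.00% of tested genes in the higher and 1.98% in the lower direction.

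**Figure D3:**
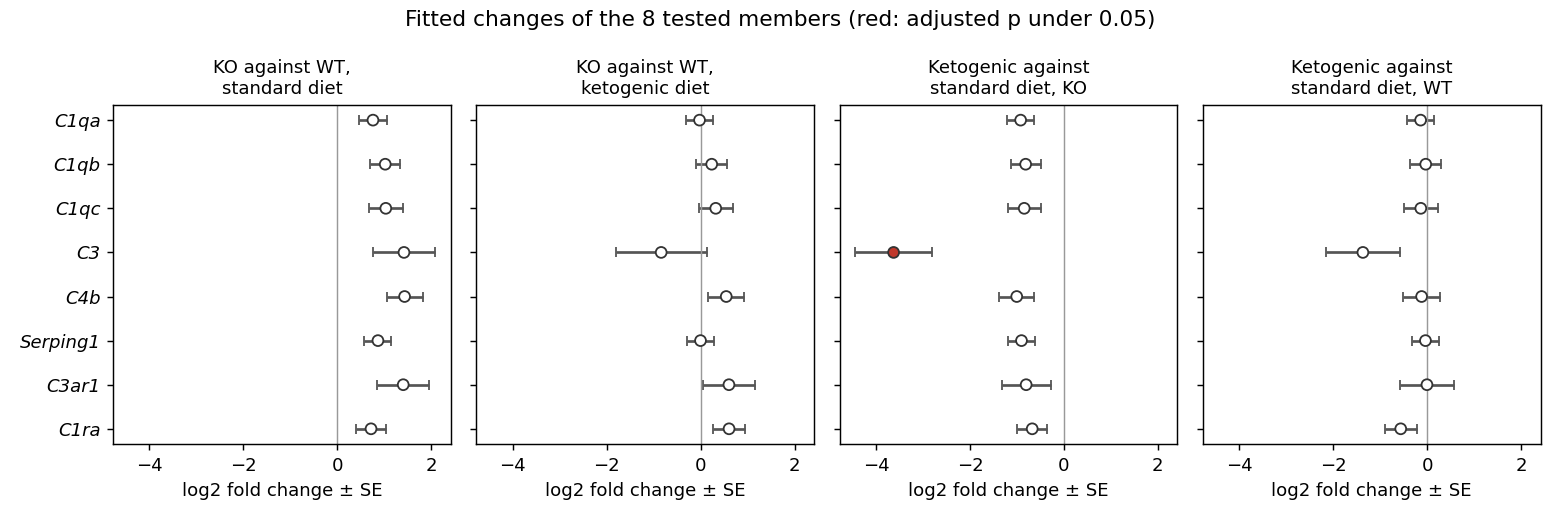
Fitted log2 fold change ± SE of the 8 tested complement genes in the 4 pairwise comparisons (edgeR, 4 libraries per group; the vertical line is 0). All 8 lie above 0 for genotype on the standard diet and below 0 for ketogenic against standard diet in the knockout, where C3, at -3.62, is the only gene with an adjusted p under 0.05.

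In the knockout, the ketogenic diet was compared with the standard diet, which shares its groups with the comparisons above. C3 fell by 3.62 on the log2 scale (SE 0.82; edgeR adjusted p = 0.0472), 12.3-fold, from 3.75 ± 2.96 to 0.288 ± 0.242 CPM (SD, n = 4 each). It was the 1 of 8 tested genes called, where 1.16% of all tested genes were called and 0.950% were called as lower. The other 7 had log2 changes of -0.92 ± 0.29 (C1qa), -0.81 ± 0.32 (C1qb), -0.84 ± 0.35 (C1qc), -1.0 ± 0.38 (C4b), -0.90 ± 0.29 (Serping1), -0.80 ± 0.52 (C3ar1) and -0.67 ± 0.32 (C1ra), with edgeR adjusted p from 0.125 to 0.462. An unadjusted p under 0.05 was reached by 7 of the 8 in the lower direction and by 0 in the higher, against 9.10% and 7.83% of tested genes, and the median was -0.87 against 0.01 over all genes. DESeq2 called 2, C1qa and C3, where it called 2.51% of all genes as lower. Groups were separate for C3, lower as were 3.72% of tested genes, and in CPM for C5ar1, higher as were 2.68%. C5ar1 was not itself among the tested genes, and its counts overlapped, at 2 to 5 on the standard and 4 to 13 on the ketogenic diet. C5ar1, fitted without the filter, had 1.41 ± 0.65 (SE; edgeR adjusted p = 0.42).

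The C3 call held in 5 of 15 alternatives, with adjusted p from 0.00233 (DESeq2) to 0.676. It was kept without KC893RL, where 1.10% of all tested genes were called as lower, and without KC888LL. It was lost without KC872RL (edgeR adjusted p = 0.136), KC873RR (0.131), KC913RR (0.133), KC916RRL (0.101), KC934R (0.0854) or KC935LL (0.0547), with log2 values from -4.39 to -2.97 over the fits without 1 library. Without both KC872RL and KC873RR the value was -2.48 (edgeR adjusted p = 0.676), where 0.0112% of all tested genes were called as lower, C3 being at 1.30 and 2.09 CPM in the remaining knockout libraries on the standard diet. Those remaining were KC893RL and the library labelled knockout KC888LL. That fit gave -0.04 for C1qa, 0.10 for C1qb, 0.24 for C1qc, -0.19 for C4b, -0.35 for Serping1, 0.94 for C3ar1 and -0.28 for C1ra. Without the library labelled knockout KC888LL, edgeR called 5 as lower: C1qa (-1.14), C1qb (-1.04), C4b (-1.28), Serping1 (-1.11) and C3 (-3.91), where 3.60% of all tested genes were called as lower.

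In wild type the diet gave no call. The log2 changes were -1.37 ± 0.78 (SE) for C3 and -0.56 ± 0.34 for C1ra, and between -0.14 and -0.00 for the other 6 (edgeR adjusted p from 0.957 to 1). Leaving out 1 library moved C3 to between -1.77 (without KC900RLL) and -0.71 (without KC897RR). C1ra then lay between -0.79 (without KC843RL) and -0.37 (without KC842L). By edgeR 0 of 8 were called, as were 0.0114% of all tested genes, 0 had an unadjusted p under 0.05, against 2.44% of tested genes in the higher and 3.01% in the lower direction, and DESeq2 called 0. All 8 values were below 0, with a median of -0.13. None of the 9 genes had separate groups, against 2.46% of tested genes in the higher and 2.42% in the lower direction.

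Whether the diet effect differed between genotypes was tested as an interaction. It was -2.26 ± 1.18 (SE; edgeR adjusted p = 0.707) for C3, -0.87 ± 0.41 (0.667) for Serping1, -0.89 ± 0.54 (0.749) for C4b, and between -0.80 and -0.11 for the other 5. By edgeR 0 of 8 were called, as were 0% of all tested genes, 1 of 8 (Serping1, lower) had an unadjusted p under 0.05, against 3.38% of tested genes in the higher and 4.09% in the lower direction, and DESeq2 called 0. The fall of C3 in the knockout was thus not shown to differ from the change in wild type.

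Microglia markers were highest in the same 2 libraries as the C1q chains. The 20 microglia markers, none of them a complement gene, summed to 374 to 407 CPM in wild type, to 750 CPM in KC872RL and to 770 CPM in KC873RR. C1qa, C1qb and C1qc together measured 147 CPM in KC872RL and 131 CPM in KC873RR, against 43.1 to 54.0 CPM in wild type. As a percent of the microglia sum, C1q was 19.6% and 17.0% in these libraries and 11.4% to 13.8% in wild type. In all 4 knockout libraries on the ketogenic diet the microglia sum, at 339 to 359 CPM, was below the wild type range. In KC913RR and KC934R, however, C1q was at 61.8 and 54.2 CPM, or 18.1% and 15.6% of the microglia sum. The remaining 4 knockout libraries were at 12.1% to 13.6%, within the wild type range. The 20 markers were all above 0 for genotype on the standard diet (0 called by edgeR, 15 at an unadjusted p under 0.05, median 0.53) and all below 0 for the diet in the knockout (0 called, 18 unadjusted, median -0.70). Of all tested genes, 7.64% were higher in the first and 9.10% lower in the second comparison at that level. In bulk tissue, fewer cells of a type and less RNA per cell cannot be told apart.

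**Figure D4:**
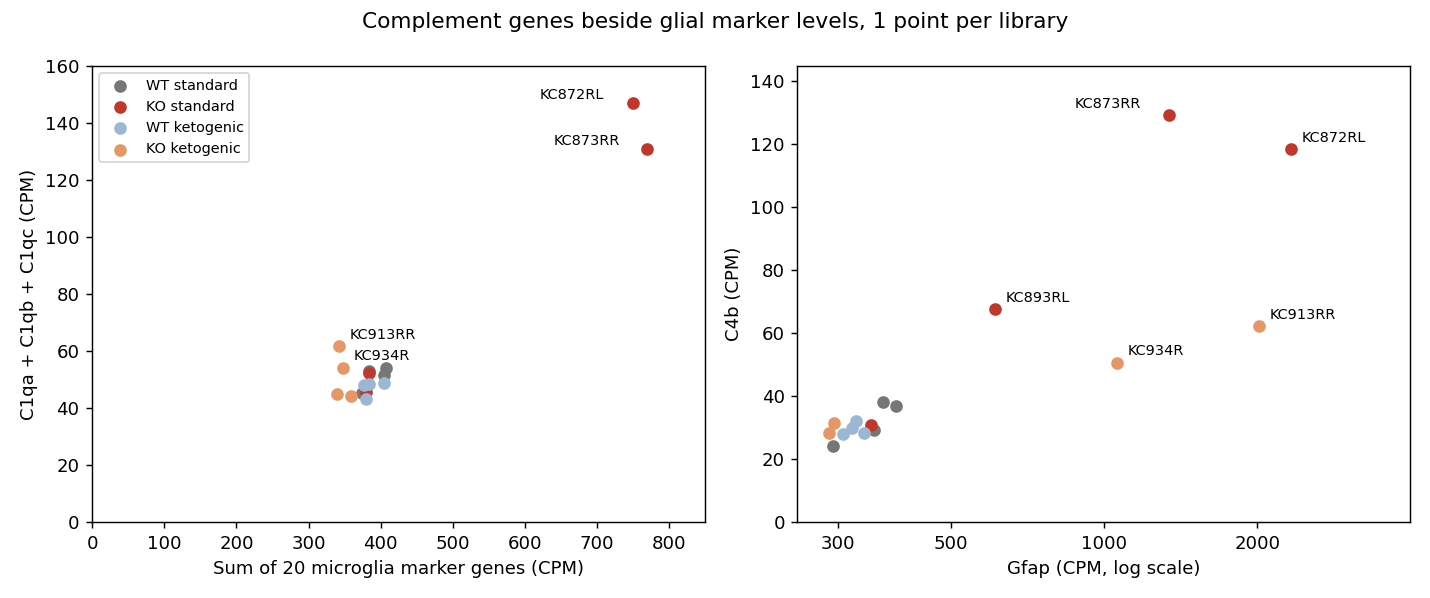
Left, summed CPM of C1qa, C1qb and C1qc against the summed CPM of 20 microglia markers; right, C4b against Gfap (CPM, log scale), 1 point per library, coloured by group. KC872RL and KC873RR stand apart on both axes at left, and KC913RR and KC934R have high Gfap and C4b at right while their microglia sums, at 342 and 348 CPM, lie below wild type.

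Reactive astrocyte markers, 13 genes, summed to 386 to 514 CPM in standard-diet wild type and 457 to 2909 CPM in the knockout on that diet. On the ketogenic diet the sums were 404 to 436 CPM in wild type and 392 to 2522 CPM in the knockout. Of these, 10 were tested, and all 10 lay above 0 for genotype on both diets, with 0 called by edgeR, 4 at an unadjusted p under 0.05 and a median of 0.99 on the standard diet, and 0, 6 and 1.42 on the ketogenic diet. Of all tested genes, 7.64% and 5.24% were higher at that level on these diets. For diet in the knockout 5 were above and 5 below 0, with 0 called, 1 higher and 1 lower at an unadjusted p under 0.05, against 7.83% and 9.10% of all tested genes, and a median of 0.02. The oligodendrocyte sum, 12 genes, was 5324 to 5895 CPM in the standard-diet knockout and 2057 to 3865 CPM in the ketogenic-diet knockout, without overlap, as for C3. In wild type it was 4284 to 6670 CPM on the standard and 3536 to 4505 CPM on the ketogenic diet, with overlap. All 12 genes were lower with the diet at an unadjusted p under 0.05 in both genotypes, with 9 called in the knockout (median -0.87) and 0 in wild type (median -0.49), by edgeR. Of all tested genes, 9.10% in the knockout and 3.01% in wild type were lower at that level, and 0.950% were called as lower in the knockout. Markers of macrophages at brain borders (7 genes) summed to at most 7.23 CPM and those of blood leukocytes (7 genes) to at most 3.37 CPM in every library. No marker was at 0 in every library, and 2 leukocyte genes were at 0 in all knockout libraries on the ketogenic diet. The red cell sum, 5 genes, was 65.8 to 113 CPM in the standard-diet knockout and 17.4 to 32.5 CPM in the ketogenic-diet knockout. KC872RL and KC873RR also expressed Ddx3y, as did wild type libraries KC890RL and KC846L, in which C1q measured 51.6 and 48.8 CPM. The part of these cell types and of sex in the complement values was not tested, beyond a fit with log2 CPM of Xist as covariate. Xist measured 4.43 CPM in KC872RL, 5.48 CPM in KC873RR and 778 to 833 CPM in the other knockout libraries. Within the knockout, the covariate and the difference of this pair from the rest therefore cannot be told apart. In that fit the values of diet in the knockout were -2.88 for C3, -0.36 for C1qa, -0.25 for C1qb, -0.16 for C1qc, -0.47 for C4b, -0.45 for Serping1, -0.36 for C1ra and, with the opposite sign, 0.46 for C3ar1 (edgeR adjusted p from 0.312 to 0.89). For genotype on the standard diet they were 0.32 for C1qa, 0.58 for C1qb, 0.48 for C1qc, 0.88 for C3, 1.03 for C4b, 0.54 for Serping1, 0.50 for C3ar1 and 0.49 for C1ra (edgeR adjusted p from 0.492 to 0.739). In these comparisons none of the 8 genes was called, and each value was closer to 0 than without the covariate. For genotype on the ketogenic diet the 8 values were each higher than without it, at 0.16 for C1qa, 0.42 for C1qb, 0.55 for C1qc, 0.71 for C4b, 0.18 for Serping1, 1.02 for C3ar1, 0.74 for C1ra and -0.62 for C3 (edgeR adjusted p from 0.487 to 0.878).

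Other marker lists were also examined for diet in the knockout, the comparison in which C3 fell. The choroid plexus sum was 47.3 to 553 CPM in the standard-diet and 32.2 to 53.2 CPM in the ketogenic-diet knockout, with overlap. In wild type it was 33.8 to 1065 CPM and 30.6 to 1040 CPM. Of its 6 genes, 5 were below 0 for diet in the knockout (0 called by edgeR, 1 lower at an unadjusted p under 0.05, median -2.63). The 9 genes of hippocampal neurons were all above 0 (1 called, 4 unadjusted, median 0.33), with sums of 675 to 953 CPM on the standard and 859 to 1071 CPM on the ketogenic diet. The 6 markers of thalamus, a region next to the hippocampus, were all below 0 (1 called, 3 unadjusted, median -0.59), with sums of 84.2 to 165 CPM and 59.9 to 156 CPM. General astrocyte markers (8 genes) had a median of -0.29 (1 called lower), endothelial markers (8 genes) -0.14 and mural cell and fibroblast markers (9 genes) -0.19 (0 called in either), and red cell markers (5 genes) -2.02 (4 called lower). Over all tested genes 1.16% were called in this comparison, 0.950% as lower, and 7.83% were higher and 9.10% lower at an unadjusted p under 0.05. For genotype on the standard diet the medians were -0.30 for choroid plexus, -0.28 for hippocampal neurons, 0.36 for thalamus, 0.21 for general astrocytes, 0.18 for endothelium, 0.22 for mural cells and fibroblasts and 0.34 for red cells, with 0 called by edgeR. At an unadjusted p under 0.05 these lists held 0, 4, 1, 2, 2, 2 and 1 genes, in that order, all higher except 3 of the 4 neuronal genes, against 7.64% of all tested genes in the higher and 6.69% in the lower direction. The part of these tissues and cells in the complement values was not tested.

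Genes with the most similar pattern over the 16 libraries were sought among 15413 genes. For the mean of the C1q chains these were Ly86 (Pearson's r = 0.975), Ctsd (0.97), Ptprc (0.967), Ctsb (0.96) and Lgmn (0.948), and without KC872RL and KC873RR their r ranged from 0.359 to 0.796. For C4b they were Gpnmb (0.955), Capn2 (0.947), Stxbp3 (0.945), Arhgdib (0.94) and H2-D1 (0.94), with r of 0.808 to 0.945 without those libraries. For C3 they were Wasf2 (0.87), Colec12 (0.866), Srgn (0.858), Lamp1 (0.856) and Apod (0.854), with r of 0.732 to 0.797 without those libraries. Each r describes 16 libraries that share groups.

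Among 52 other genes of the complement system, 32 rows passed the filter. On the standard diet 0 of 32 were called by edgeR between knockout and wild type, as were 0.00572% of all tested genes. At an unadjusted p under 0.05, 7 were higher and 1 lower, against 7.64% and 6.69% of all tested genes, and the median log2 fold change was 0.10. The strongest were Clu, which encodes clusterin, an inhibitor of the terminal pathway, C1s1, which encodes the C1s protease and lies 2.1 Mb from Kcna1, and Itgb2, the beta chain of complement receptor 3. Clu had 0.42 ± 0.10 (SE; edgeR adjusted p = 0.192), with 929, 1067, 635 and 830 CPM in the knockout against 633 to 660 CPM in wild type. C1s1 had 1.52 ± 0.41 (adjusted p = 0.192, edgeR), with 4.63, 3.32, 1.08 and 2.41 CPM in the knockout against 0.653 to 1.28 CPM. Itgb2 had 1.20 ± 0.32 (adjusted p = 0.194, edgeR), with 10.01, 8.86, 3.19 and 3.30 CPM in the knockout and 2.36 to 2.94 CPM in wild type. Its groups were separate, as for 2.97% of tested genes in the higher direction. KC872RL and KC873RR were the highest libraries for all 3 genes, as for the C1q chains. Of the 32, Masp1 and C1s2 were also separate and higher in the knockout. Masp1 measured 12.17 to 13.83 CPM there and 10.05 to 12.03 CPM in wild type, and C1s2 0.508 to 0.866 CPM and 0.188 to 0.487 CPM.

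For the diet in the knockout, edgeR called 2 of the 32, both lower, as were 0.950% of all tested genes. At an unadjusted p under 0.05, 3 were higher and 7 lower, against 7.83% and 9.10% of all tested genes, and the median was -0.05. Colec12, a membrane-bound collectin that binds sugars, fell by 1.01 on the log2 scale (SE 0.22; edgeR adjusted p = 0.0342), from 8.59 ± 2.00 to 4.24 ± 0.979 CPM (SD, n = 4 each). Its groups were separate, as for 3.72% of tested genes in the lower direction. Groups were also separate for Sez6l, higher as were 2.68% of tested genes, at 353 to 425 CPM against 306 to 345 CPM on the standard diet. Itgam, the alpha chain of complement receptor 3, fell by 1.14 (SE 0.27; edgeR adjusted p = 0.0483), from 14.7, 12.1, 4.92 and 6.09 CPM to 5.62, 3.66, 3.54 and 4.35 CPM. Clu had -0.43 ± 0.10 (edgeR adjusted p = 0.0520). It was called in 3 of 15 alternatives, and had -0.19 without KC872RL and KC873RR (edgeR adjusted p = 0.822). Without KC872RL the log2 change was -0.94 for Colec12 (edgeR adjusted p = 0.136) and -0.84 for Itgam (0.191), and without KC873RR it was -0.90 (0.125) and -1.01 (0.156). Without both libraries it was -0.71 for Colec12 (edgeR adjusted p = 0.703) and -0.36 for Itgam (0.851). The standard-diet knockout then held only KC893RL and the library labelled knockout KC888LL. Of 15 alternatives, Colec12 kept its call in 7 and Itgam in 5. Both calls also ended without KC913RR, KC916RRL or KC934R, where the log2 changes were -0.89, -1.02 and -1.01 for Colec12 and -1.30, -1.08 and -1.06 for Itgam (edgeR adjusted p from 0.0628 to 0.103). They ended with Xist as covariate, at -0.84 for Colec12 and -0.63 for Itgam (edgeR adjusted p = 0.258 and 0.374), and with only the groups compared, at -1.02 and -1.15 (0.12 and 0.288). The call of Itgam alone ended without KC935LL, at -1.15, and with no filter on low counts, at -1.14 (edgeR adjusted p = 0.0859 and 0.0899).

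By list, the receptors (4 rows tested) were all above 0 for genotype on the standard diet, with 2 higher at an unadjusted p under 0.05, a level passed by 7.64% of all tested genes in the higher and 6.69% in the lower direction. Of the initiators of the classical and lectin pathways (7 tested), 3 were higher and 1 lower at that level, and of the fluid-phase regulators (4 tested) 2 were higher. The alternative pathway (2 tested), the terminal pathway (3 tested), the membrane regulators (8 tested) and neuronal regulators of C1q (4 tested) had 0 at that level. For diet in the knockout, 2 neuronal regulators (Sez6l and Sez6) and 1 membrane regulator (Csmd2) were higher at that level. Lower were 2 initiators, 2 fluid-phase regulators, 2 receptors and 1 membrane regulator (Cd59a). Of all tested genes, 7.83% were higher and 9.10% lower in that comparison.

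On the ketogenic diet 0 of the 32 were called between knockout and wild type, with 1, higher, at an unadjusted p under 0.05 (5.24% of all tested genes were higher and 3.97% lower) and a median of -0.01. That gene was Cd93, a transmembrane protein once described as a C1q receptor, with 1.09 ± 0.38 (SE; edgeR adjusted p = 0.438). It measured 27.9, 7.10, 15.3 and 6.17 CPM in the knockout and 5.56 to 7.82 CPM in wild type. KC913RR and KC934R, in which C1qb, C1qc, C4b and Gfap were above the wild type range, were the 2 high ones. Cfp, which encodes properdin, had -0.24 (edgeR adjusted p = 0.579), and Sez6l, of a family of neuronal complement regulators, had 0.11 (0.598). In wild type the diet gave 0 calls and 0 at an unadjusted p under 0.05, against 2.44% of all tested genes in the higher and 3.01% in the lower direction, with a median of 0.04. The values of smallest p were -0.24 for Csmd3, 0.22 for Cfp and 0.10 for Sez6l (edgeR adjusted p of 0.951, 0.963 and 0.970). The interaction gave 0 calls, with 6 genes lower and 0 higher at an unadjusted p under 0.05, against 4.09% and 3.38% of all tested genes.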

How the data were processed

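Per the labels, 16 libraries of hippocampal RNA were sequenced, and the values analysed are the raw counts in the deposited table; the submitters' processing notes name mm10 and DESeq2, and the aligner, counter, annotation and use of strand are not given in the sources used here. Genes were therefore placed with GENCODE M21 (GRCm38), which held 49056 of 49315 identifiers. Column names gave an animal tag, genotype and diet but no replicate number, so each column was assigned to its group only. With edgeR 4.0.16 (R 4.3.3), filterByExpr kept 17469 genes, TMM factors were computed, and the robust quasi-likelihood model, with a coefficient for each group, took in all libraries (12 residual degrees of freedom). Tests were two-sided, adjusted over all tested genes by Benjamini-Hochberg, and called at 0.05. log2 CPM used a prior count of 2. Alternatives were DESeq2 1.42.0, its size factors, no filter beyond 1 count, no robust estimation, Xist as covariate, only the groups compared, and each library left out.

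The genes and lists were chosen with earlier results of these data known. Besides the 9 genes, the text names other complement genes that were called and, per pairwise comparison, the 3 of smallest p with a mean of at least 1 CPM, and the 5 genes most correlated with the C1q chains, C4b and C3. In counts simulated with 200 genes changed 3-fold in the standard-diet knockout, edgeR recovered 194 against wild type on that diet, with 13 others called among 17274 tested. Changed genes were drawn from those with a mean above 1 CPM, and each changed alike in all libraries of that group. The recovery therefore does not apply to genes that differ among the libraries of a group, as C4b did in the standard-diet knockout. No pair of libraries of a group agreed within sampling noise (chi-square per gene 3.62 to 22.9).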

Additional observations from a re-analysis of the deposited data

Results flagged for a closer look

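Of 36 sets of 4 libraries (9 genes in 4 groups), 3 held a library farther from the others than Dixon's 95% value allows, and chance gives about 1 in 20. C1qa was lowest in KC894RLL among standard-diet wild type, at 23.6 CPM against 29.5 CPM for the next library (ratio of gap to range 0.926). Among ketogenic-diet wild type, C1qa was lowest in KC843RL, at 23.1 CPM against 26.1 CPM (ratio 0.842). In ketogenic-diet knockout, C3 was highest in KC935LL, at 0.646 CPM against 0.221 CPM (ratio 0.83), from 11 counts. Leaving out KC935LL moved the log2 change of C3 with diet in the knockout from -3.62 to -4.39. KC872RL and KC873RR were not singled out in this way. For the C1q chains and C3ar1, 2 high libraries in 4 left no single extreme, and for the other genes the ratio did not exceed Dixon's 95% value.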

How the results depend on the processing

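For genotype on the standard diet, 1 gene was called in all, and 18 with no filter, 2 with Xist as covariate, 0 with only the groups compared, 177 by DESeq2, 0 without KC872RL and KC873RR, and 0 to 1016 without 1 library, 1016 being without KC888LL. Of the complement genes 0 were called, against 1 by DESeq2 and 0 to 5 without 1 library. On the ketogenic diet the count of 3 genes became 11 with no filter, 5 without robust estimation, 33 by DESeq2 and 1 to 13 without 1 library. For diet in the knockout the 202 genes became 7 with Xist, 9 with only the groups compared, 677 by DESeq2, 2 without KC872RL and KC873RR and 28 to 1096 without 1 library. The 1 complement gene became 0 with no filter, Xist, only the groups compared or without both libraries, 2 by DESeq2, and 0 to 5 without 1 library. In wild type the 2 genes changed with diet became 0 without robust estimation, 1 with Xist, 11 with only the groups compared, 12 by DESeq2 and 0 to 3 without 1 library. The interaction, with 0, gave 2 with no filter and 7 by DESeq2, and 0 without 1 library. The cause was not tested.

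Signs turned for values near 0 and for those resting on KC872RL and KC873RR. With both left out, the standard-diet knockout held only KC893RL and the library labelled knockout KC888LL. Without both libraries, genotype on the standard diet gave -0.13 for C1qa, -0.059 for C1qc and -0.34 for C3ar1, and diet in the knockout 0.10 for C1qb, 0.24 for C1qc and 0.94 for C3ar1. The interaction then gave 0.11 for C1qa, 0.14 for C1qb, 0.38 for C1qc, 0.94 for C3ar1 and 0.28 for C1ra. With Xist, genotype on the ketogenic diet gave 0.16 for C1qa and 0.18 for Serping1, diet in the knockout 0.46 for C3ar1, and the interaction 0.070 for C1qc, 0.52 for C3ar1 and 0.25 for C1ra. In wild type the diet value of C3ar1 was 0.0048 with no filter and 0.0016 by DESeq2. Without 1 library, genotype on the ketogenic diet ranged from -0.065 to 0.0052 for C1qa and from -0.090 to 0.16 for Serping1. The diet in wild type ranged from -0.066 to 0.012 for C1qb, -0.22 to 0.090 for Serping1 and -0.16 to 0.39 for C3ar1, and the interaction from -0.36 to 0.24 for C1ra.

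No paired analysis was possible because the columns carry no replicate number. C3, C3ar1, C1ra and C5ar1 rest on few counts in each library, which limits their precision.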
